A study of Mus musculus with 91 samples.

Results

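A set of 9 genes for transcription factors of the ETS and Runx families was followed through single bone marrow progenitor cells of the mouse: Spi1, Ets1, Fli1, Elf1 and Etv6 of the ETS family, Runx1, Runx2 and Runx3 of the Runx family, and Cbfb, whose protein is the partner of the Runx proteins. They were taken by symbol, and all 9 of 9 were found among the 23956 genes listed. The study captured granulocyte-monocyte progenitors (GMP) and a fraction labelled CD11b+ GMP-P, of which 46 and 45 cells were used here. All cells came from C57BL/6 mice labelled Gfi1-R412X/- Irf8+/-, that is, with an altered Gfi1 allele opposite an allele written as "-" and with 1 copy of Irf8, and no cells without these alleles were analysed here. Both populations carry the same description of the sort, as lineage-negative cells positive for CD117 and CD34, negative for Sca-1 and high for CD16/32. CD11b is the surface integrin that appears as myeloid cells mature. The labels name no animals, so each population counts as 1 sample, no difference between them was tested, and every SD below is a spread over cells. Their names also carry an identifier for each population whose meaning is not given, and a batch cannot be told apart from the population.

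ETS proteins bind DNA at a GGAA core. PU.1, the product of Spi1, is an ETS factor that myeloid development depends on, and it works beside C/EBP proteins and Irf8 in setting granulocyte and monocyte fates. Runx proteins bind DNA through their Runt domain, and Cbfb, which does not bind DNA itself, strengthens that binding. Gfi1 is a transcriptional repressor that granulocyte development requires, and it is known to restrain the action of PU.1.

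In CD11b+ GMP-P cells, Spi1 and Ets1 stood higher than in GMP cells, Elf1, Etv6 and Runx2 stood lower, and Fli1, Runx1, Runx3 and Cbfb differed by less than 1. Levels are log2(TPM + 1), where TPM is a share of the cell's transcripts corrected for transcript length, and a difference of at least 1 between the mean levels over cells was called higher or lower. Thus 2 of the 9 members were called higher, against 2.45% of the 10030 genes that were above 0 in 10% or more of the cells of at least 1 population. A further 3 of 9 were called lower, against 29.9% of the same genes. All 9 members passed that filter. Their median difference was -0.68, and that of the 10030 genes was -0.50.

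The populations differed in how many genes a cell showed. GMP cells had 5294 ± 801 genes above 0 and CD11b+ GMP-P cells had 4112 ± 953 (SD, n = 46 and 45 cells), and the 50 most abundant genes of a cell held 27.3% ± 1.96 and 48.9% ± 16.1 of its TPM. Differences were therefore also taken in the range of 3947 to 5645 genes that the populations share, which holds 26 GMP and 21 CD11b+ GMP-P cells. In that range 5.88% of genes were higher and 16.7% lower, with a median of -0.20. The part of the gene number in each difference was not tested beyond this comparison.

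The labelled cell type was checked against its genes. Itgam, which encodes CD11b, had mean levels of 0.54 in GMP and 3.68 in CD11b+ GMP-P cells. Kit, which encodes CD117, stood at 3.65 and 0.90, and Cd34 at 7.22 and 2.55, although both populations were described as positive for these proteins. Fcgr3 was at 9.18 and 6.89 and Fcgr2b at 5.24 and 3.46, both being CD16/32 genes. Ly6a, which encodes Sca-1, was seen in 93.5% of the GMP and 97.8% of the CD11b+ cells, with means of 5.51 and 5.74, which goes against a gate negative for Sca-1, although Ly6 genes are alike enough that reads could be split between them. Of the 6 gate genes 1 was called higher and 4 lower. The altered gene Gfi1 had means of 5.92 ± 2.88 and 3.84 ± 3.36, and Irf8 of 6.27 ± 3.46 and 3.48 ± 4.09 (SD, n = 46 and 45 cells).

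**Figure D1:**
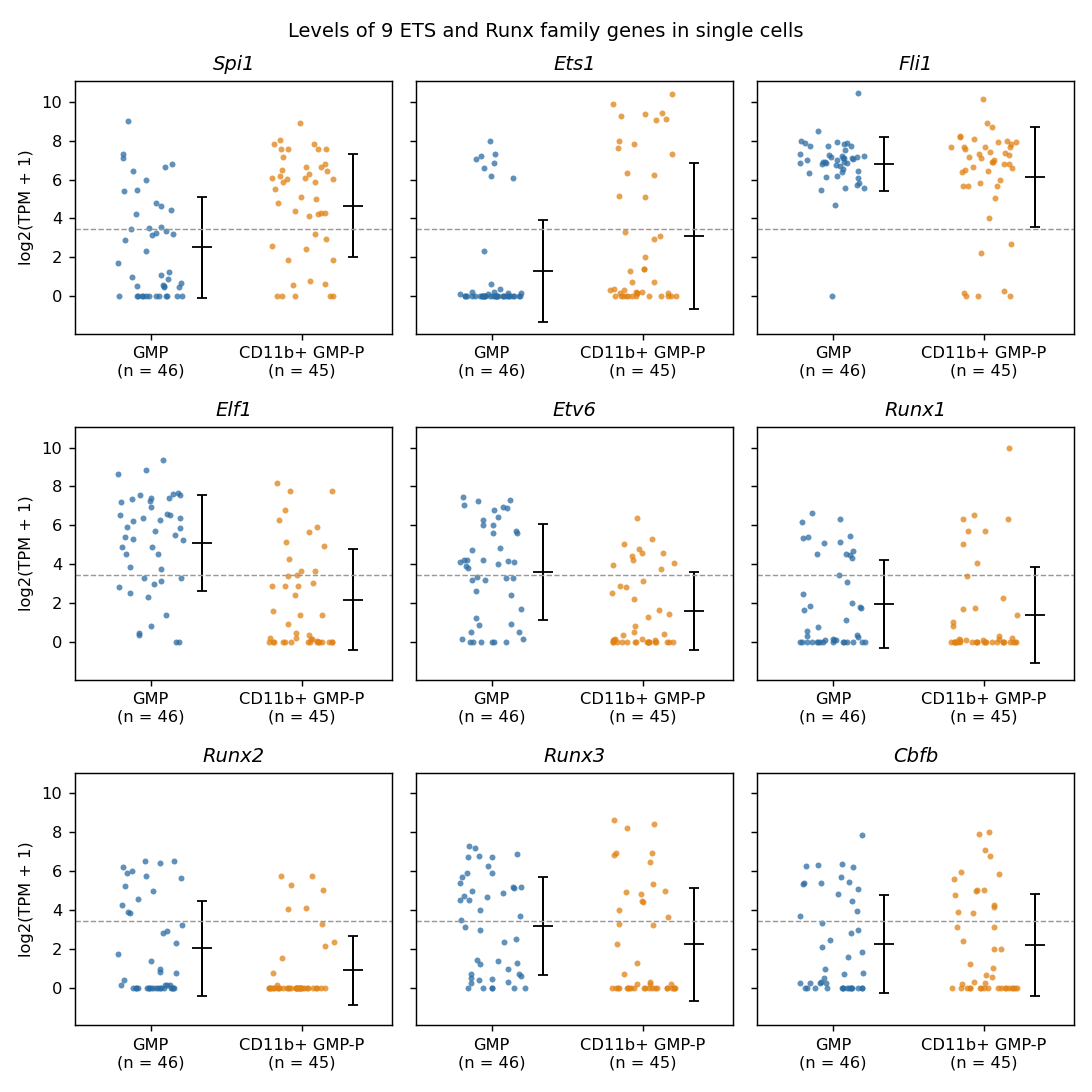
Level of each gene in every cell as log2(TPM + 1), with GMP cells in blue and CD11b+ GMP-P cells in orange. Black marks give the mean and SD over cells, and the dashed line is 10 TPM. Fli1 forms a narrow band in GMP, and Ets1 has a group of CD11b+ GMP-P cells above the highest GMP cell, which stood at 7.98.

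Spi1 was the member with the largest difference upward. In GMP cells its level ran from 0 through a median of 1.48 to 9.0, and in CD11b+ GMP-P cells from 0 through 5.50 to 8.92. The ranges overlapped almost fully, and what differed was how many cells stood high. Spi1 reached 10 TPM in 16 of 46 cells of GMP (34.8%, with an exact Clopper-Pearson 95% interval of 21.4% to 50.2%) and in 31 of 45 CD11b+ GMP-P cells (68.9%, 53.4% to 81.8%). The intervals cover counting error only and treat cells as independent. The mean went from 2.52 ± 2.59 to 4.66 ± 2.67 (SD, n = 46 and 45 cells), a difference of 2.14, the 60th highest of the 10030 genes. Within the shared range of genes detected the difference was 1.88, and Spi1 kept its call under all 8 alternative settings, with values from 1.20 to 2.88. Spi1 also did not follow the number of genes in a cell, with a Spearman rho of 0.01 over GMP and 0.05 over CD11b+ GMP-P cells.

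Ets1, best known from lymphoid cells, was low in most GMP cells. Its level there had a median of 0 and a highest value of 7.98, and 8 of 46 cells reached 10 TPM (17.4%, 7.82% to 31.4%). In CD11b+ GMP-P cells it ran from 0 through a median of 0.74 to 10.40, with 15 of 45 cells at 10 TPM or more (33.3%, 20% to 49%). The CD11b+ GMP-P population was thus split, with 12 cells at 0 and 7 cells above the highest GMP cell. The mean went from 1.30 ± 2.64 to 3.09 ± 3.73 (SD, n = 46 and 45 cells), a difference of 1.80 and the 82nd highest. Without the 10% of cells with the fewest genes in each population the difference was 1.54 and still called. In the shared range it was 0.31 and not called, with a GMP mean of 1.74 and a CD11b+ GMP-P mean of 2.05. The 21 CD11b+ GMP-P cells below that range had a mean of 4.58 ± 3.98 and held 10 of the 15 cells at 10 TPM.

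Fli1, an ETS factor of blood and endothelial cells, was the most abundant member in both populations. Its level in GMP had a median of 6.95 and a highest value of 10.47, and 45 of 46 cells reached 10 TPM (97.8%, 88.5% to 99.9%). In CD11b+ GMP-P the median was 6.93 and the highest value 10.14, and 38 of 45 cells reached 10 TPM (84.4%, 70.5% to 93.5%). The medians nearly coincided, and the spread was wider in the CD11b+ cells, with means of 6.81 ± 1.39 and 6.13 ± 2.59 (SD, n = 46 and 45 cells). The difference of -0.68 was not called, and the log2 ratio of mean TPM + 1 was -0.01. Ets1 and Fli1 lie on 1 chromosome with 2 annotated genes between them, neither protein-coding, and their rho over CD11b+ GMP-P cells was 0.02.

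Elf1, a widely expressed ETS activator, had the largest difference downward. In GMP its level ran from 0 through a median of 5.60 to 9.38, with 33 of 46 cells at 10 TPM or more (71.7%, 56.5% to 84%). In CD11b+ GMP-P it ran from 0 through 0.94 to 8.18, with 12 of 45 cells at 10 TPM (26.7%, 14.6% to 41.9%). Most GMP cells thus carried Elf1 and most CD11b+ GMP-P cells did not reach that level, although the ranges overlapped. The means were 5.10 ± 2.49 and 2.18 ± 2.59 (SD, n = 46 and 45 cells), a difference of -2.92, the 265th lowest. In the shared range the difference was -1.96, and the call was kept in all 8 settings, from -4.16 to -1.58. Elf1 overlaps Wbp4 on the opposite strand, and these libraries do not mark strand, so reads from the overlapping stretch cannot be separated.

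Etv6, an ETS repressor needed by blood stem cells, was also lower in CD11b+ GMP-P cells. Its level in GMP ran from 0 through a median of 3.94 to 7.48, with 25 of 46 cells at 10 TPM (54.3%, 39% to 69.1%). In CD11b+ GMP-P it ran from 0 through 0.38 to 6.38, with 11 of 45 cells at 10 TPM (24.4%, 12.9% to 39.5%). None of the 21 CD11b+ GMP-P cells with the fewest genes, those below the shared range, reached 10 TPM. The means were 3.59 ± 2.49 and 1.59 ± 1.98 (SD, n = 46 and 45 cells), a difference of -2.0, but in the shared range it was -0.46 and no longer called. With a pseudocount of 10 it was -0.98. Gm17089 overlaps Etv6 on the opposite strand, as Gm26626 does Runx1.

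The order of the ETS members therefore differed between the populations. In GMP the means ran Fli1, Elf1, Etv6, Spi1 and Ets1 from high to low, and in CD11b+ GMP-P Fli1, Spi1, Ets1, Elf1 and Etv6. TPM is per transcript length, so levels of different genes can be set side by side. Over all 9 members, the only neighbours in either order whose gap exceeded the smaller of their SDs were Fli1 and Elf1 in GMP, with a gap of 1.72, and Fli1 was the higher of the pair in 35 of 46 cells. No gap between neighbours in CD11b+ GMP-P exceeded the spread over cells. Summed over the 5 ETS members, the log2 level of a GMP cell was 8.17 ± 0.85 and that of a CD11b+ GMP-P cell 8.08 ± 1.58 (SD, n = 46 and 45 cells).

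**Figure D2:**
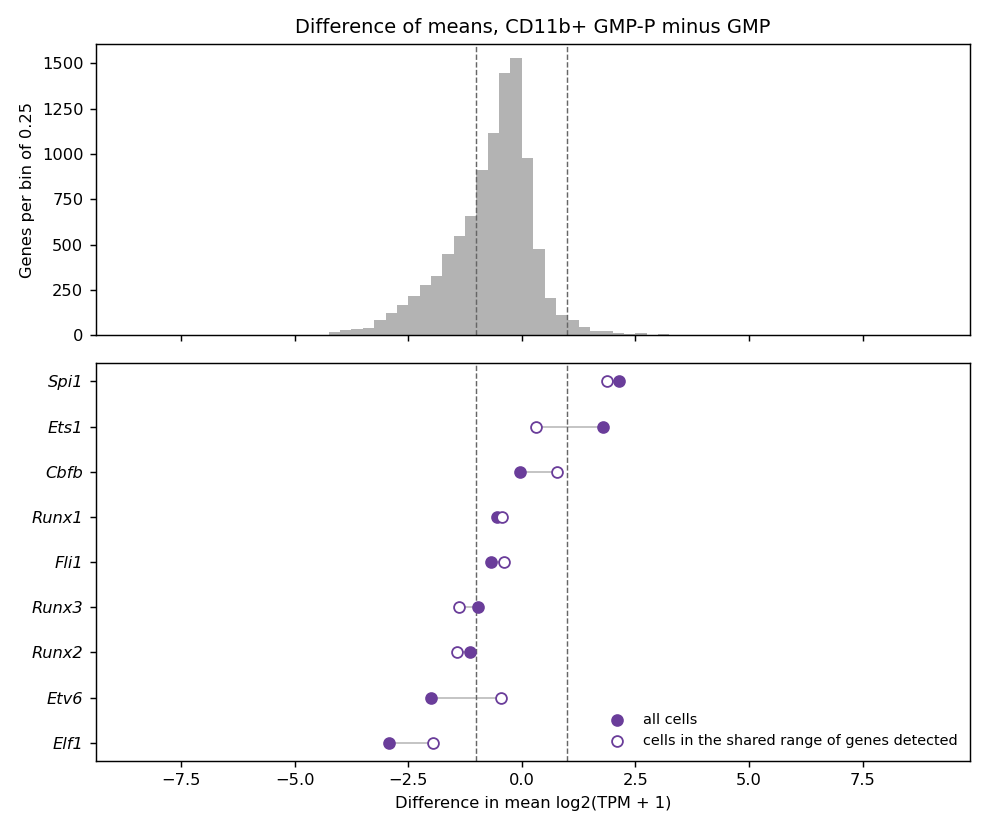
Top, number of genes by difference in mean log2(TPM + 1), CD11b+ GMP-P minus GMP, for the 10030 genes that passed the filter. Bottom, the same difference for each member over all cells (filled) and over the cells with 3947 to 5645 genes (open), with dashed lines at -1 and 1. Spi1 and Elf1 stay outside the lines in both, and Ets1 and Etv6 move inside them, to 0.31 and -0.46.

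The Runx genes were lower and sparser than the leading ETS genes. Runx1, the Runx gene of blood stem cells and of myeloid development, had in GMP a median of 0.67 and a highest value of 6.61, with 13 of 46 cells at 10 TPM (28.3%, 16% to 43.5%). In CD11b+ GMP-P its median was 0 and its highest value 9.999, with 8 of 45 cells at 10 TPM (17.8%, 8.0% to 32.1%). The means of 1.96 ± 2.28 and 1.40 ± 2.46 (SD, n = 46 and 45 cells) differed by -0.55, under the size called. A single CD11b+ GMP-P cell held 70.9% of the population's Runx1 TPM. On the log2 ratio of mean TPM + 1, Runx1 was higher in CD11b+ GMP-P by 1.27, and without that cell the ratio was -0.38, so this cell set its direction. The same cell had the highest Ets1 level, 10.40, and showed 2461 genes.

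Runx2, the Runx gene of bone formation, was the least abundant member in CD11b+ GMP-P. In GMP its level had a median of 0.59 and a highest value of 6.54, and 14 of 46 cells reached 10 TPM (30.4%, 17.7% to 45.8%). In CD11b+ GMP-P the median was 0 and the highest 5.74, and 6 of 45 cells reached 10 TPM (13.3%, 5.05% to 26.8%). In CD11b+ GMP-P 33 of 45 cells were listed at 0, against 18 of 46 in GMP. The means were 2.03 ± 2.45 and 0.89 ± 1.79 (SD, n = 46 and 45 cells), a difference of -1.14 that was -1.43 in the shared range and -0.49 with a pseudocount of 10. The antisense gene Runx2os1 overlaps Runx2, and reads from the overlapping stretch cannot be told apart.

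Runx3, the Runx gene best known from lymphocytes and dendritic cells, was the most abundant of the 3 in both populations. In GMP it had a median of 3.29 and a highest value of 7.28, with 23 of 46 cells at 10 TPM (50%, 34.9% to 65.1%). In CD11b+ GMP-P its median was 0.18 and its highest value 8.61, with 15 of 45 cells at 10 TPM (33.3%, 20% to 49%). Fewer CD11b+ GMP-P cells thus carried Runx3, while 3 of them stood above the highest GMP cell. The means were 3.19 ± 2.52 and 2.23 ± 2.90 (SD, n = 46 and 45 cells). Their difference of -0.96 lay just inside the limit of 1: it was -1.37 in the shared range, the log2 ratio of mean TPM + 1 was 0.35, and leaving out any of 28 of the 91 cells, 1 at a time, moved it past -1.

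Cbfb showed no difference between the populations of the size called under any of the 8 settings. In GMP its level had a median of 0.84 and a highest value of 7.84, and 15 of 46 cells reached 10 TPM (32.6%, 19.5% to 48%). In CD11b+ GMP-P the median was 0.66 and the highest 8.02, and 15 of 45 cells reached 10 TPM (33.3%, 20% to 49%). The means were 2.25 ± 2.50 and 2.22 ± 2.62 (SD, n = 46 and 45 cells). The difference of -0.03 ranged from -0.49 to 0.77 over the settings, and 6 of the 8 gave it the other sign.

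The promoters of the Runx genes and of Cbfb are shown because they carry motifs of the 2 families described here. RefSeq promoter windows of build GRCm38.p6, from 250 bases before a transcript start to 50 after it, were listed for 6 of the 9 members, 9 windows in all, with none for Spi1, Ets1 and Fli1. The Runx motif ACCACA, searched on both strands, was found in 16.8% of the 32851 windows listed and in 3 of the 9 member windows, which were those of Runx1, Runx2 and Runx3 at their farthest-upstream listed start. In each of these the motif stood in tandem, ACCACANNACCACA, an arrangement found in 7 windows of 32851 (0.0213%). Only a spacing of 2 bases was searched, so that share holds for this spacing alone. Counted from the transcript start, the tandem began after it in Runx1 (29) and Runx2 (24) and before it in Runx3 (-134). The tandem search contains the single motif, so the searches overlap. These 3 stretches of 30 bases, with the motifs in capitals, read as follows, at chr16:92826025-92826054 on the minus strand for Runx1, chr17:44814583-44814612 on the minus strand for Runx2 and chr4:135120503-135120532 on the plus strand for Runx3.
Runx1: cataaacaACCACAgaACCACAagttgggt
Runx2: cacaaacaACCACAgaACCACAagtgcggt
Runx3: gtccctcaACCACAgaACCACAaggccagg
The motif GAGGAAGT, a form bound by PU.1, was found on either strand in 3.2% of windows and in 1 of the 9, that of Cbfb, at chr8:105170665-105170694 on the plus strand, again with the motif in capitals.
Cbfb: gagggcggcgaGAGGAAGTggcggccgcag
The general ETS form CGGAAG was found in 16.9% of windows and in 0 of the 9, and the Gfi1 core AAATCA in 14% and in 1 of the 9, that of Etv6. A match is a string of letters in a window and was not tested as a bound site.

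The members were also counted together in single cells, at 10 TPM or more. At least 2 of the 3 Runx genes were found in 15 of 46 GMP cells (32.6%, 19.5% to 48%) and in 3 of 45 CD11b+ GMP-P cells (6.67%, 1.40% to 18.3%). All 3 were found together in 4 cells, each of them a GMP cell. Cells with no Runx gene at that level were 15 and 19, so the populations differed more in cells with several Runx genes than in cells with any. Each Runx gene alone also reached 10 TPM in a smaller share of CD11b+ GMP-P than of GMP cells. The mean number per cell went from 1.09 ± 0.96 to 0.64 ± 0.61 over all cells, and from 1.12 ± 0.86 to 0.62 ± 0.67 in the shared range (SD, n = 26 and 21 cells). Runx1 was joined by Runx3 in 10 of its 13 GMP cells and in 1 of its 8 CD11b+ GMP-P cells. Among cells without Runx1, Runx3 was there in 39.4% and 37.8%, and the Spearman rho of the pair was 0.14 and 0.07. Runx1 and Runx2 were together in 6 GMP cells, but among the 45 CD11b+ GMP-P cells in 0, which allows a share of up to 6.67% by 3 counts of the total, and of 7.87% by the exact interval. At 1 TPM they shared 10 and 1. Only 8 CD11b+ GMP-P cells had Runx1 at 10 TPM and 6 had Runx2, which left room for few shared cells. Among the cells without Runx1, Runx2 was there in 24.2% in GMP and 16.2% in CD11b+ GMP-P.

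**Figure D3:**
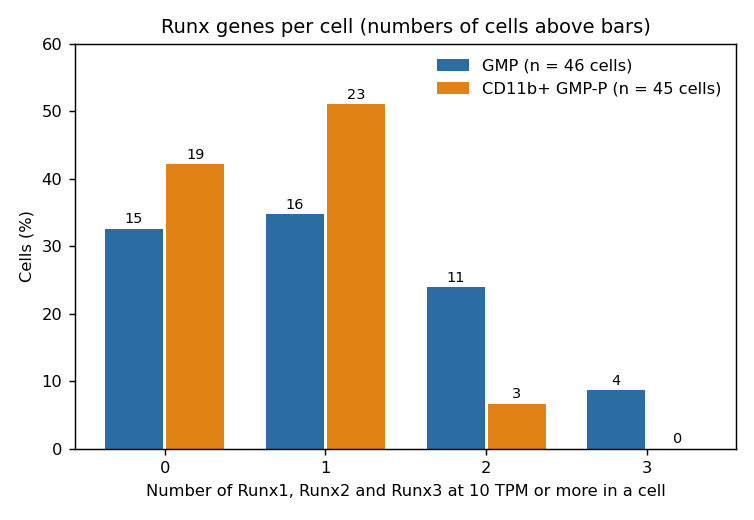
Share of cells (%) by the number of Runx genes at 10 TPM or more, from 0 to 3, with GMP in blue and CD11b+ GMP-P in orange and the number of cells written above each bar. At 2 or 3 genes there are 15 GMP and 3 CD11b+ GMP-P cells.

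Cbfb at 10 TPM was about as frequent in cells with a Runx gene as over all cells. Of the cells with any Runx gene at 10 TPM, 10 of 31 in GMP and 8 of 26 in CD11b+ GMP-P also had Cbfb there. Over all cells the shares with Cbfb were 32.6% and 33.3%. Of the cells with no Runx gene at that level, 5 of 15 and 7 of 19 had Cbfb. A value of 0 or under 10 TPM in 1 cell can be a transcript that was missed.

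Of the 36 pairs of members, a few are given by their counts at 10 TPM, and 124 of 144 pair counts moved by over 1.5 times when the floor was 1 TPM or any value above 0. Spi1 and Ets1 were found together in 1 GMP and 11 CD11b+ GMP-P cells, and in 5 and 19 at 1 TPM. Within CD11b+ GMP-P they were not tied, with Ets1 in 35.5% of the cells with Spi1 and in 28.6% of those without, and a rho of -0.02. Every one of the 14 GMP cells with Runx2 also had Elf1, which was at 10 TPM in 33 of 46. Ets1 and Etv6 shared 4 GMP cells but 0 of 45 CD11b+ GMP-P cells, where 15 and 11 cells held one or the other. A count of 0 again allows up to 6.67% by 3 counts and 7.87% by the exact interval. This 0 depended on the floor, since 5 of these cells had both genes at 1 TPM or more and 18 had both above 0. Elf1 and Etv6 went together in CD11b+ GMP-P, with Etv6 in 58.3% of the cells with Elf1 and in 12.1% of those without. Over the same cells the Spearman rho was -0.48 for Ets1 and Etv6, -0.47 for Ets1 and Elf1 and 0.44 for Elf1 and Etv6, and given the number of genes above 0 these were -0.28, -0.28 and 0.07. These pairs were picked out after their values were seen, and the correlations share the cells and their gene numbers.

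To place the cells, 3 gene programmes were used: primary granule genes, which neutrophil precursors make first, late granule genes, which follow, and monocyte genes. In CD11b+ GMP-P cells Ets1 went with the late granule genes, with a rho of 0.67 over 45 cells against their mean level, 0.56 given the number of genes and 0.57 over the 21 cells in the shared range. All 15 cells with Ets1 at 10 TPM had a late granule mean of at least 7.58, and in the 18 cells below it the highest Ets1 level was 0.32. The relation was not one to one, since 12 of the remaining 27 cells had Ets1 under 10 TPM. Against the primary granule genes Ets1 had a rho of -0.59, and -0.44 given the number of genes. The number of genes itself had a rho of -0.45 with Ets1, 0.87 with the primary and -0.70 with the late granule genes in these cells.

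Elf1 and Etv6 ran the other way in CD11b+ GMP-P. Elf1 had a rho of -0.53 with the late and 0.58 with the primary granule genes, and Etv6 of -0.47 and 0.56. Both followed the number of genes, with a rho of 0.61 for Elf1 and 0.66 for Etv6. Given that number, the values for Elf1 were -0.17 and 0.13 and those for Etv6 were -0.01 and -0.04. Over the 21 cells of the shared range Elf1 had a rho of -0.45 with the late and 0.55 with the primary granule genes, and Etv6 of -0.18 and 0.08. Within that range Elf1 still followed the number of genes, with a rho of 0.58, and given it the values for Elf1 were -0.34 and 0.42. The relation of Elf1 was thus smaller given the gene number but nearly as large in the shared range, which did not remove the gene number. That of Etv6 was smaller in both. Spi1, though higher in the population, had a rho of 0.02 with the late granule genes within it, and its high cells were spread over the whole range of late granule levels. In the 21 cells of the shared range Runx3 had a rho of -0.64 with the late granule genes, -0.58 given the number of genes, against -0.29 over all 45 cells, and Runx1 had one of 0.61 with the monocyte genes, against 0.27. In GMP no member reached a rho of 0.5 in size with any of the 3 programmes.

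**Figure D4:**
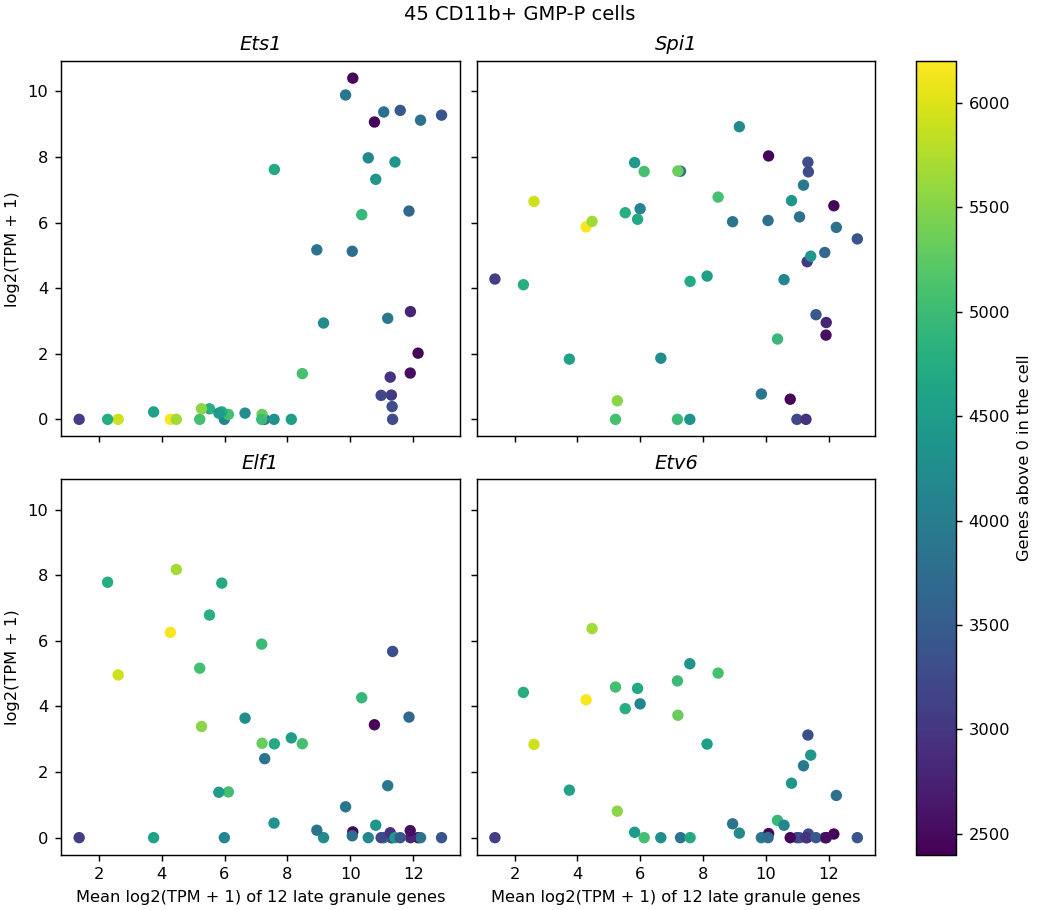
Level of Ets1, Spi1, Elf1 and Etv6 in each of the 45 CD11b+ GMP-P cells (log2(TPM + 1)) against the cell's mean level of 12 late granule genes on the same scale, coloured by the number of genes above 0. Ets1 is high only from a late granule mean of 7.58 upward, Elf1 and Etv6 are mostly high below it, and Spi1 is high across the range.

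**Figure D5:**
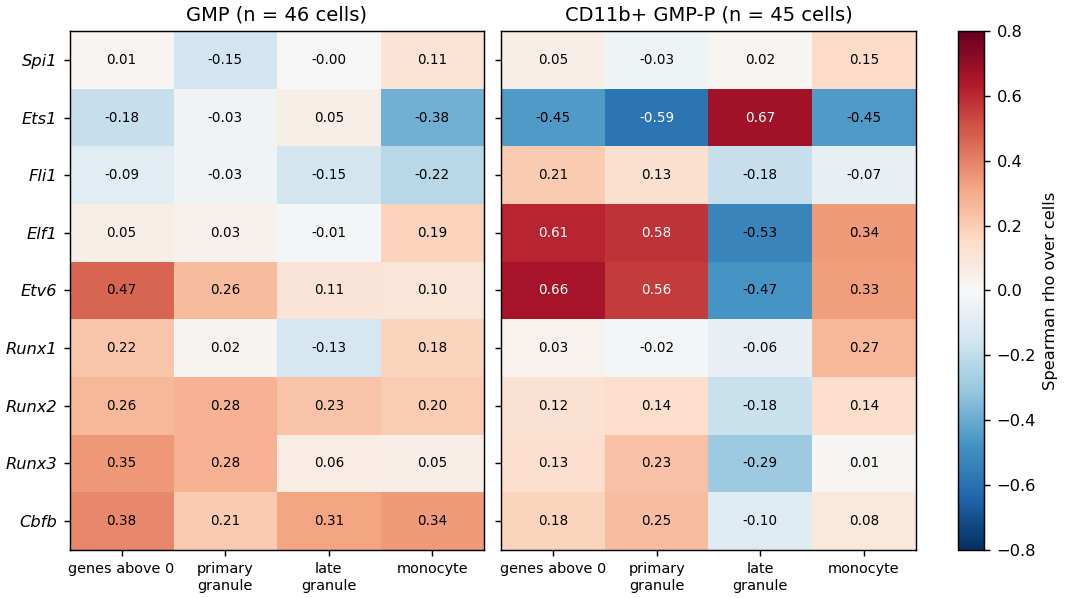
Spearman rho over cells between each member (rows) and the number of genes above 0 or the mean level of a gene programme (columns), in GMP on the left and CD11b+ GMP-P on the right, with red for positive and blue for negative values. The strongest cells are Ets1 with late granule genes (0.67) and Etv6 with the number of genes (0.66), both in CD11b+ GMP-P.

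The other genes around these factors were described from lists. Of 21 other ETS genes 9 passed the filter and none was called higher or lower, with a median of -0.37, and 9 of the 21 were listed at 0 in every cell. The largest differences were those of Elk3 (-0.69) and Gabpa (-0.62), followed by Erg (-0.47), a close relative of Fli1, and Etv5 (-0.41). The other ETS genes had GMP means of at most 1.34, that of Gabpa, which left little room for a fall of 1. The members were also chosen with earlier results of these data known, so these counts do not set the 5 members apart. Of 13 matched Runx cofactors 10 passed and 2 were lower, the corepressors Cbfa2t2 (-1.58) and Cbfa2t3 (-1.47), with a median of -0.49. Over all genes tested 29.9% were lower, with a median of -0.50, so the cofactors did not stand out. In the shared range both lost their calls, at -0.97 and -0.48. The next largest differences were those of Prmt1 (-0.95), an arginine methyltransferase, and Sin3a (-0.74), a corepressor.

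Partners of PU.1 differed in both directions. Of 15 partners or antagonists 11 passed, with 1 higher, 5 lower and a median of -0.90, against 29.9% lower and a median of -0.50 over all genes tested. Cebpe, a C/EBP factor of late granulocyte maturation, was higher by 2.62. Irf8 (-2.79), Myb (-2.39), a progenitor factor, and Gfi1 (-2.08) were lower, and so were Gata2 (-1.76) and Cebpa (-1.05). In the shared range Irf8 (-0.93) and Cebpa (-0.62) lost their calls. Spi1 at 10 TPM was joined by Irf8 in 15 of 16 GMP cells and in 13 of 31 CD11b+ GMP-P cells, and by Cebpe in 5 of 16 and 24 of 31. Among cells without Spi1, Irf8 was there in 66.7% and 35.7% and Cebpe in 40% and 64.3%. Ets1 was joined by Cebpe in 14 of its 15 CD11b+ GMP-P cells, against 63.3% of the cells without Ets1. The pairs with Irf8 and Cebpe were chosen after their values were seen.

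Genes known as PU.1 targets were mixed. Of 20 targets 18 passed, with 5 higher, 1 lower and a median of -0.09. Over all genes tested 2.45% were higher and 29.9% lower, with a median of -0.50. Higher were Lyz2 (4.40), which encodes lysozyme, and Cybb (3.54), Ncf1 (2.61) and Ncf4 (2.19), which encode parts of the phagocyte oxidase. Lyz2 is also on the list of late granule genes. Itgam (3.15) was the fifth, and it encodes the protein that the population is named for. Fcgr3, a gate gene, was lower, with a difference of -2.29. Of 10 genes known as Runx targets 6 passed, with Spi1 higher and 4 lower, namely Mpo (-4.40), Elane (-3.06), Nfe2 (-1.50) and Cebpa (-1.05), and a median of -1.27. Mpo and Elane are also primary granule genes, and in the shared range their differences were -1.78 and -0.05, while that of Nfe2 was 0.10.

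The programmes and the markers of other cells were measured beside these results. All 9 matched primary granule genes were lower, with a median of -3.06, led by Ctsg (-5.11) and Srgn (-5.06), but in the shared range 4 of the 9 were, with a median of -0.98. Of 12 late granule genes 11 were higher, with a median of 5.39, led by Chil3 (8.11) and Camp (7.83), and all 11 kept their call in the shared range. Of 12 monocyte genes 8 passed, with Lgals3 (3.84) higher and 4 lower, among them F13a1 (-3.83), Ms4a6c (-3.12) and Ccr2 (-2.93), and a median of -1.56. The shares over all genes tested were 2.45% higher and 29.9% lower, with a median of -0.50. These lists and the members were read from the same libraries, and the part of cell maturity in the members' differences was not tested.

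Markers of other cell types were absent in part, and some were seen in many cells. T and NK cell markers had 6 of 9 matched genes at 0 in every cell, Cd3e among them, and none of the 3 that passed was called. Cd3d was above 0 in none of the GMP and 13.3% of the CD11b+ GMP-P cells, and Lck in 15.2% and 11.1%. Their summed level had a median of 0 in both populations and highest values of 6.42 in GMP and 5.05 in CD11b+ GMP-P. Of 9 B cell markers 6 were at 0 in every cell, among them Pax5. Cd79b alone passed, with a difference of -2.04, and the summed level ranged from 0 to 10.2 and from 0 to 9.12. None of 11 erythroid and megakaryocyte markers passed, 7 were at 0 in every cell, and the summed level ranged from 0 to 9.46 and from 0 to 9.14. Basophil and mast cell markers were present, with 6 of 9 passing and 3 lower, namely Hdc (-2.64), Mcpt8 (-2.22) and Gata2 (-1.76), of which 2 kept the call in the shared range, and a summed level of 0.24 to 14.6 in GMP and 0 to 17 in CD11b+ GMP-P. Dendritic cell markers had 4 of 10 passing and none called, with 5 at 0 in every cell and summed levels of 0 to 8.14 and 0 to 7.68. Among them Xcr1 was above 0 in 39.1% of GMP and 37.8% of CD11b+ GMP-P cells, and H2-Ab1 in 34.8% and 13.3%. Stroma and endothelium markers had 2 of 8 passing and none called, with 3 at 0 in every cell and summed levels of 0 to 5.07 and 0 to 4.27. Lepr, of this list, was above 0 in 97.8% of the cells of each population, with means of 2.36 in GMP and 1.42 in CD11b+ GMP-P. The part of other cell types in the members' levels was not tested.

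Genes with a pattern most like each member were taken as the 3 with the highest Spearman rho over the cells of a population, among genes seen in 50% or more of those cells, which were 4999 genes for GMP and 3312 for CD11b+ GMP-P. For Ets1 in CD11b+ GMP-P they were Ifitm6 (0.76), Camp (0.71) and Lcn2 (0.68), the last 2 being late granule genes. There 22 genes reached a rho of 0.5 with Ets1 and 189 reached -0.5, the lowest being Calr (-0.72), which encodes the chaperone calreticulin. Elf1 was most like Usp14 (0.67), Ptcd3 (0.63) and Idh3a (0.63), and Etv6 most like Pebp1 (0.66), Cdadc1 (0.65) and Slc25a4 (0.63). For these members 112 and 134 genes reached 0.5. Given the number of genes above 0, 1 and 2 of all genes compared did so. The likeness of Elf1 and Etv6 to other genes thus went largely with the gene number, while for Ets1 13 genes reached 0.5 given that number.

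The other members had few genes like them in CD11b+ GMP-P. Spi1 was nearest to Cirbp (0.50) and Glud1 (0.47), and Fli1 to Ppp3r1 (0.59), Sept7 (0.58) and Dctn1 (0.55). Runx3 was nearest to Wdr18 (0.52), Sec61g (0.50) and Fbxo22 (0.50), and Cbfb to Itga4 (0.49), Ccdc59 (0.49) and Lbp (0.46). Runx1 and Runx2 were above 0 in too few of these cells to be compared.

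In GMP none of the 8 members compared had more than 9 genes at a rho of 0.5, and Ets1 was above 0 in too few cells to be compared. The highest value was that of Cbfb with Pdpk1 (0.66), followed by Casc5 (0.59) and Dlgap5 (0.58), both genes of cell division. Runx1 was nearest to Tank (0.51), Zfp280c (0.48) and Dld (0.48), Runx2 to Hsf1 (0.58), Mid1ip1 (0.55) and Dpm3 (0.51), and Runx3 to Tex2 (0.60), Ddx55 (0.54) and Pole4 (0.52). Fli1 was nearest to Glrx3 (0.58), Lyl1 (0.54), itself a transcription factor of blood progenitors, and Gm12669 (0.54). Spi1 was nearest to Pgls (0.55), Rn45s (0.50) and Rps2 (0.47), the last 2 being ribosomal RNA and a ribosomal protein gene, both with near-identical copies in the genome. Elf1 was nearest to Ivd (0.53), Bag2 (0.47) and Fam172a (0.46), and Etv6 to Ltn1 (0.56), Smchd1 (0.55) and Timm8a1 (0.54). None of these genes was named for 2 members or in both populations.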

How the data were processed

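Expression was measured in single mouse bone marrow cells, processed on the Fluidigm C1 system with SMARTer cDNA and Nextera XT kits, per the labels' protocols. These kits add no molecular identifier, so PCR copies count again, and they lose strand, so reads from overlapping stretches cannot be separated. The authors deposited values on a log2 scale. After the pseudocount of 1 was taken off, every cell had the total that TPM has, within rounding, so the values are log2(TPM + 1). RSEM and the build mm9 are named, with no RSEM version, in the submitters' processing notes. The annotation is not given in the sources used here.

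Depth is not kept by TPM, and precision is given here as genes above 0 and as the spread over cells. In total 80.3% of values were 0. No 2 cells correlated above 0.736, so none was a repeat of another. No doublet caller was run, and the main values use every cell.

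Cells were grouped by their labels. Means over cells were compared as CD11b+ GMP-P minus GMP, and 1 or more in size was called. No p-value was made, as each population is 1 sample. Spearman rho was a description over cells, and partial rho took the number of genes above 0 as given. The genes named are the members, Gfi1 and Irf8, the gate genes, up to 4 of each list with the largest differences, and 3 genes most like each member, of which 1 is not reported here; Cd3e, Pax5, the genes overlapping members, Calr, Cebpa among the PU.1 partners, and Itgam and Fcgr3 among the targets were added after values were seen. The members and all lists, 16 in number, were chosen with earlier results of these data known. RefSeq names and promoters of GRCm38.p6 were used for symbols and sequences (Tle5, Azu1 and Trac were unmatched), and RefSeq positions for the genes between Ets1 and Fli1. Genes overlapping members were taken from exons in the GENCODE annotation. These sources are of another build than mm9, which the files use, and the overlaps were not checked in mm9. Scripts ran in Python 3.11.15 with numpy 2.4.6, pandas 2.3.3 and scipy 1.17.1, and were tested on simulated data.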

Additional observations from a re-analysis of the deposited data

How the results depend on the processing

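The calls of Spi1 and Elf1 were the same under all 8 alternative settings for levels, namely a pseudocount of 0.1 or 10, the ratio of mean TPM, 2 rescalings, the shared range of genes detected, and leaving out the cells with the most or the fewest genes. The number of members called higher was 1 in the shared range, where Ets1 lost its call, against 5.88% of all genes tested. The number called lower was 5 with a pseudocount of 0.1 and 1 with a pseudocount of 10. The shares of all genes tested that were lower there were 45.6% and 12.6%. The median difference of the members was -1.15 with a pseudocount of 0.1, against -0.87 over all genes tested. It was 0.33 when means of TPM were compared, against -0.47, and the cause was not tested. Runx1 was called in opposite directions by a pseudocount of 0.1 (-1.15) and by the ratio of means (1.27, and -0.38 without 1 cell, chosen after seeing the data). Of the 45 genes named as most like a member, 22 were among the top 3 by Pearson r and 31 given the number of genes above 0. The rho of Etv6 with the primary granule genes in CD11b+ GMP-P became -0.0370 given the number of genes above 0. Over all relations with gene number and programmes, 114 of 126 alternative values of rho stayed on the same side of 0.5 in size and 29 changed sign. Most of these relations were under 0.5 from the start, so that count says little about the larger ones. Among the changed values 7 fell under 0.5, 1 fell and reversed its sign, and 4 rose to 0.5 or more. Of the granule relations of 0.5 or more, only that of Ets1 with the late granule genes kept this size in both alternatives. Counts of cells with a pair of members moved by over 1.5 times in 124 of 144 values at other floors. Shares of cells with a member above 0 moved beyond their counting intervals in 26 of 36 values at floors of 1 or 10 TPM. In the shared range they did so in 2 of 18. The shares at 10 TPM given for each member were not the baseline of these counts. Leaving out any 1 cell, also chosen after seeing the data, changed no member's call except that of Runx3. Without a depth for each cell, a gene at 0 cannot be told apart from one that was missed. No paired analysis was possible because the replicate numbers only name cells.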
